A study of Mus musculus with 2 samples.

Results

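The 39 protein-coding Hox genes of the mouse lie in 4 clusters, Hoxa on chromosome 6, Hoxb on chromosome 11, Hoxc on chromosome 15 and Hoxd on chromosome 2, and all 39 were found in the GENCODE annotation of mm10 by their symbols. They are described here in DNase-seq of the urinary bladder, an assay in which a nuclease cuts the DNA that is open in chromatin and the cuts are mapped to the genome. The series held 1 group of 2 libraries from B6CASTF1/J males (F1 animals of a C57BL/6J by CAST/EiJ cross) aged 14 days, with no treatment, other age or other tissue. Replicate 1 was labelled as the bladder of a single male and replicate 2 as that of 3 males. The labels gave both libraries the same donor entry, and with 1 group every value below is a description of these 2 libraries without a test. Whole bladder holds several cell types, so that fewer cells with an open site and less opening per cell cannot be told apart.

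Hox genes encode homeodomain transcription factors that give cells their position along the body axis. Genes with the same number in different clusters form a paralogue group, and the low-numbered (anterior) groups lie at the 3′ end of a cluster and act nearer the head, whereas the high-numbered (posterior) groups lie at the 5′ end and act nearer the tail. The bladder forms near the posterior end of the trunk, and Hoxa13 and Hoxd13 are known from mouse embryos for their part in forming its lower tract. In mammals the clusters are also known as large domains of Polycomb repression where they are silent, with CTCF, a zinc-finger protein of chromatin boundaries, bound between active and silent genes.

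Of all 100 kb tiles of the genome, the one with the most accessible regions in both bladder libraries lay over the middle and posterior genes of the Hoxa cluster. A region counted as shared where peaks of both replicates overlapped by at least 1 bp, and 101 of the 73225 shared regions of the genome were centred in the 4 clusters and the 50 kb on each side of them. The Hoxa cluster held 42 shared regions in its 105 kb, the Hoxb cluster 20 in 174 kb, the Hoxc cluster 5 in 116 kb and the Hoxd cluster 18 in 96.8 kb. Of the 39 genes, 22 had an open promoter, which is 56.4% against 57.2% of all 21659 protein-coding genes tested, so that this share was near the background. The density of regions differed by cluster. It was 39.9 per 100 kb in Hoxa, 18.6 in Hoxd, 11.5 in Hoxb and 4.32 in Hoxc, against 2.69 over the genome. The open Hox promoters were weak, with a median signal of 2.48 in replicate 1 and 1.99 in replicate 2, against 4.87 in replicate 1 and 4.06 in replicate 2 over all open genes.

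The deposited peak lists held 139821 peaks for replicate 1 and 82225 for replicate 2, and the footprint lists 331596 and 200630 short protected stretches. The signal of a peak, given by the authors for each peak, was a whole multiple (within 0.05 steps) of 0.00521 in replicate 1 and of 0.00799 in replicate 2, so that 1 step weighed 1.54 times more in replicate 2. Read numbers were not used here, and the depth behind a value is known only through these steps. The tissue label was checked against marker promoters. All 8 urothelial markers had an open promoter (Gata3 8.39 ± 2.1, Upk2 4.47 ± 1.1; mean signal ± SD, n = 2), as did 5 of 6 smooth muscle markers (Myh11 2.78 ± 0.65), while 0 of 4 immune markers and 0 of 4 intestinal markers did.

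The Hoxa cluster (mm10; its genes are read from the minus strand of chromosome 6) had 75 peaks in replicate 1 and 54 in replicate 2. Its 42 shared regions came to 39.9 per 100 kb, against 2.69 per 100 kb over the genome. When the genome was cut into 27247 tiles of 100 kb, the median tile held 1 shared region, 78 tiles (0.286%) held at least 20, and 1 tile (0.00367%) held at least 40. That tile was chr6:52200001-52300000, with 40 shared regions, which holds the start sites of Hoxa5, Hoxa6, Hoxa7, Hoxa9, Hoxa10, Hoxa11 and Hoxa13. The next densest tile, on chromosome 17, had 36. The tile before it, over the anterior part of the Hoxa cluster, held 5. The tiles of the other clusters held 6 to 11 in Hoxb, 9 and 10 in Hoxd and 5 and 7 in Hoxc, where 5.99% of all tiles held at least 10.

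**Figure D1:**
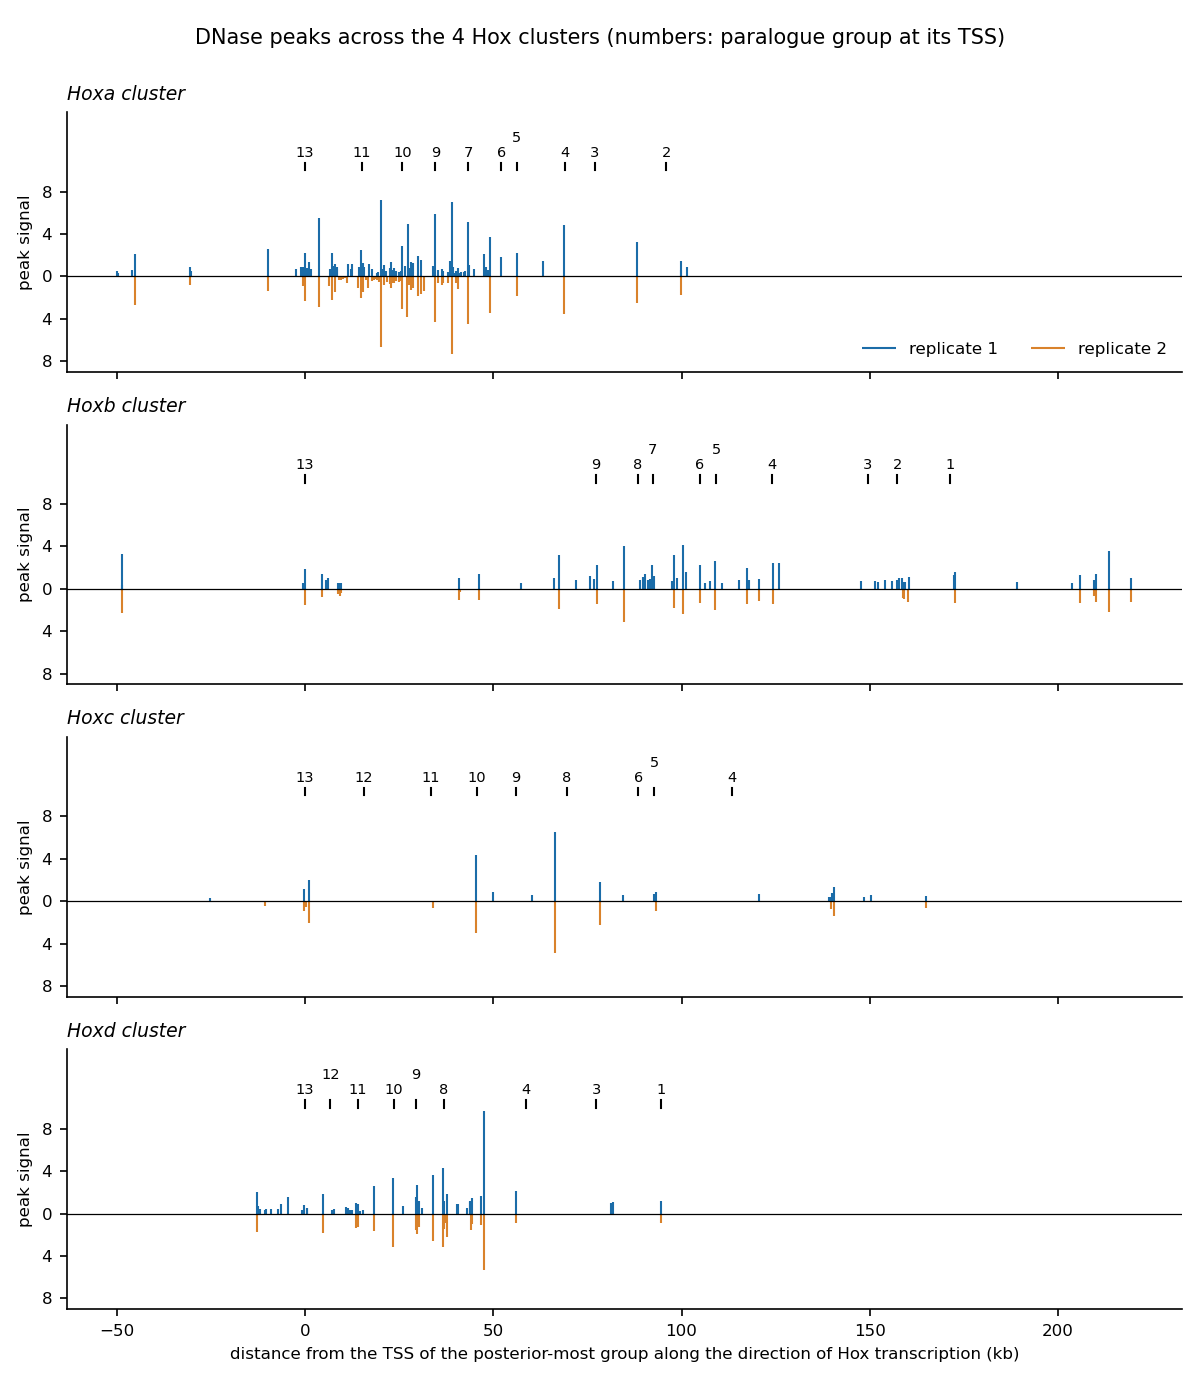
Peaks of both replicates across the 4 clusters and 50 kb on each side. The x axis gives the distance in kb from the transcription start site (TSS) of the group 13 gene along the direction of Hox transcription, the y axis the deposited peak signal (replicate 1 above the line, replicate 2 below it), and the numbers mark the TSS of each paralogue group. Peaks crowd between Hoxa13 and Hoxa7 in both replicates, the strongest peak lies between Hoxd8 and Hoxd4, and no peak lies in the 3′ flank of the Hoxa or the Hoxd cluster. The mark of 1 start site and the peaks within 1 kb of it are left out.

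On their anterior side the Hoxa and Hoxd clusters had flanks without a shared region. Such stretches are common, since 39.3% of all 100 kb tiles of the genome held none. The 50 kb on the 3′ side of the Hoxa cluster and the 50 kb on the 3′ side of the Hoxd cluster had 0 peaks and 0 footprints in either replicate. On the 5′ side, 4 shared regions lay beyond Hoxa13 (8 per 100 kb) and 1 lay beyond Hoxd13 (2 per 100 kb). The region beyond Hoxd13 was in an exon of Evx2, the homeobox gene next to the Hoxd cluster. The Hoxb cluster had 11.5 shared regions per 100 kb in its body, against 4 per 100 kb on its 5′ side and 10 per 100 kb on its 3′ side. The Hoxc cluster had 4.32 per 100 kb in its body, against 2 per 100 kb on its 5′ side and 6 per 100 kb on its 3′ side, so that the body density lay between those of its flanks. With the stricter peak lists the Hoxb body was no longer denser than its flanks. Promoters of the outermost genes lie partly in the flanks, and the region at the Hoxb13 start site was counted there.

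Between Hoxa11 and Hoxa7 open chromatin covered more of the bases, in both replicates, than between any other neighbouring Hox genes. The deposited false discovery rate (FDR) track of each library gives the stretches where cutting stood out from the surroundings, and the share of bases at FDR 0.05 or lower was taken between the start sites of neighbouring genes. In the 10.9 kb between Hoxa11 and Hoxa10 it was 59.0% in replicate 1 and 85.1% in replicate 2, with 57.7% of bases in both. Between Hoxa10 and Hoxa9 the share in both replicates was 45.1% and between Hoxa9 and Hoxa7 it was 42.7%, against 0.895% over the genome. Between Hoxa13 and Hoxa11 it was 14.0%. On the anterior side of Hoxa7 the share in both dropped to 2.07% between Hoxa7 and Hoxa6, although replicate 1 alone had 29.2% there, and it was 0% in the 7.90 kb between Hoxa4 and Hoxa3.

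The same measure was far lower in the other clusters. In Hoxd the highest share in both replicates was 18.6%, between Hoxd9 and Hoxd8, followed by 9.66% between Hoxd8 and Hoxd4, and the 18.6 kb between Hoxd4 and Hoxd3 had 0 shared regions and no base at this FDR in either replicate. In Hoxb no interval exceeded 4.93% in both replicates (Hoxb6 to Hoxb5), while replicate 1 had 31.7% and replicate 2 had 0% between Hoxb8 and Hoxb7. In Hoxc no interval exceeded 2.36% (Hoxc11 to Hoxc10). Over the whole bodies the share in both was 17.1% in Hoxa, 2.23% in Hoxb, 1.18% in Hoxc and 4.90% in Hoxd.

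**Figure D2:**
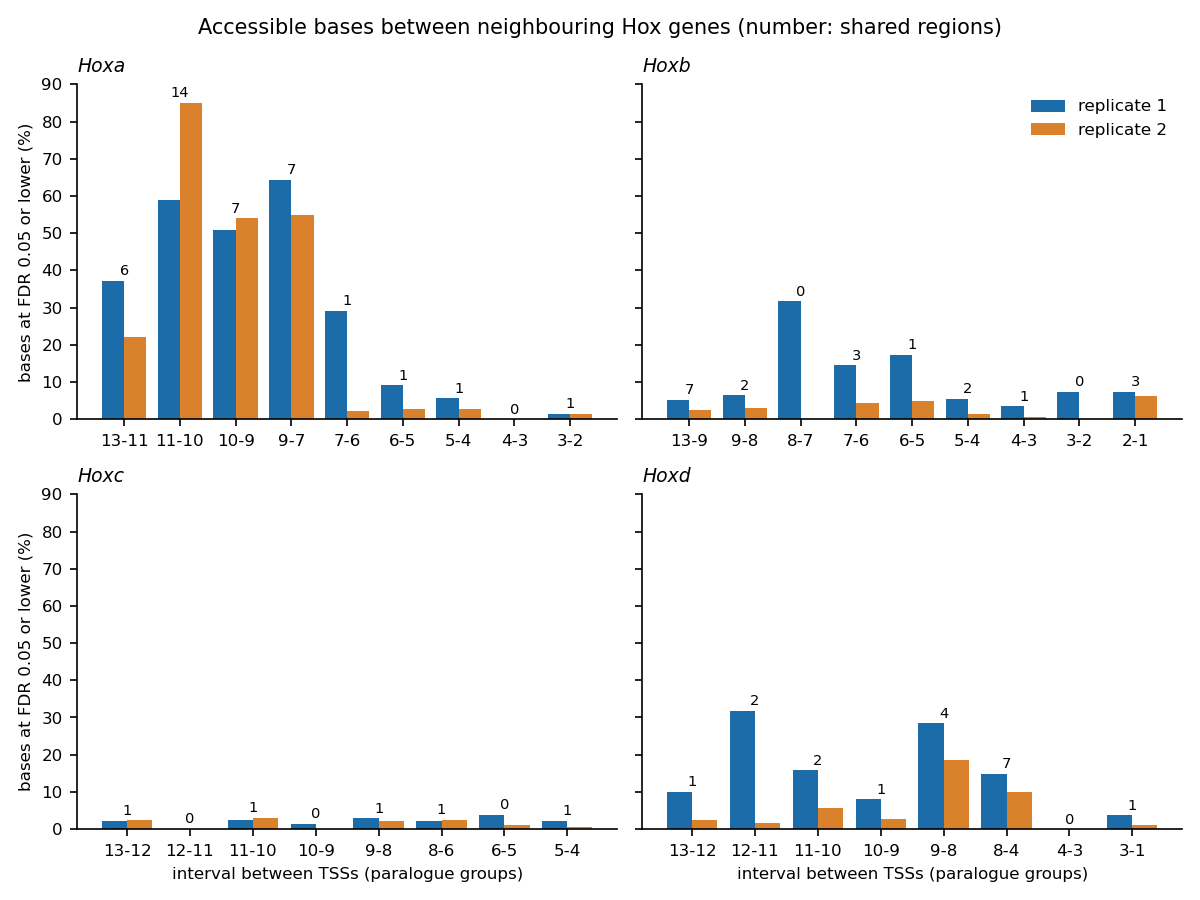
Share of bases (y axis, percent) at FDR 0.05 or lower between the TSSs of neighbouring Hox genes (x axis, paralogue groups from posterior to anterior), for replicate 1 and replicate 2, with the number of shared regions above each pair of bars. In Hoxa the 4 intervals from group 13 to group 7 hold 6, 14, 7 and 7 shared regions, and replicate 1 is the higher bar in every Hoxb and Hoxd interval that has any.

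The strongest regions of the clusters did not lie at the Hox start sites nearest to the start codon, the sites used here for promoters. Those of Hoxa did lie within 1 kb of other annotated start sites of Hoxa7 and Hoxa10. The strongest of all 101 was in the Hoxd cluster between Hoxd8 and Hoxd4 (chr2:74715861-74716040), with a signal of 9.67 in replicate 1 and 5.28 in replicate 2 (7.48 ± 3.1, SD, n = 2). It overlaps an exon of the antisense transcript Hoxd3os1 and introns of long transcripts of Hoxd3 and Hoxd4. In Hoxa the strongest lay in an exon of a long Hoxa7 transcript between Hoxa9 and Hoxa7 (chr6:52221721-52221960; 6.97 in replicate 1 and 7.31 in replicate 2) and in an exon of a long Hoxa10 transcript between Hoxa11 and Hoxa10 (chr6:52240441-52240660; 7.17 and 6.63 in the same order). In Hoxc it lay 2997 bp upstream of the Hoxc8 start site, in an intron of a long Hoxc5 transcript (chr15:102987521-102987700; 6.57 in replicate 1 and 4.84 in replicate 2), and in Hoxb 3745 bp upstream of Hoxb8 (chr11:96278901-96279060; 4.01 in replicate 1 and 3.12 in replicate 2). Each of these 5 regions was also shared by the stricter lists. They are shown on the plus strand of mm10, 5′ to 3′, because their footprints can be read in the sequence. Capitals mark bases inside a footprint of both replicates.
Hoxd, between Hoxd8 and Hoxd4: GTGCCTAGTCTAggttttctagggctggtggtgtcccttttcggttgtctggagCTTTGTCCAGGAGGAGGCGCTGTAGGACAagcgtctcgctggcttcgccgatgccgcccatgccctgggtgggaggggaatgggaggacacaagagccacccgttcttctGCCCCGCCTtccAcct
Hoxa, between Hoxa9 and Hoxa7: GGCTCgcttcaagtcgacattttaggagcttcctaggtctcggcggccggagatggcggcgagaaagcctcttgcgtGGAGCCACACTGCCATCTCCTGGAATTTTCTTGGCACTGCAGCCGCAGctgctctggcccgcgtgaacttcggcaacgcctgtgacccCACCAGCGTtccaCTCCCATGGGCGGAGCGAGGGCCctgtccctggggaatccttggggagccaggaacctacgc
Hoxa, between Hoxa11 and Hoxa10: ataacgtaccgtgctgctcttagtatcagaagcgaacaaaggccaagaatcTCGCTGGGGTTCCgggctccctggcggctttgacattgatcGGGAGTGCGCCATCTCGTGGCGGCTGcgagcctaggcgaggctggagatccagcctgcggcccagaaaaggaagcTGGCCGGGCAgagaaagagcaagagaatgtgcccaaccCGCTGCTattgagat
Hoxc, upstream of Hoxc8: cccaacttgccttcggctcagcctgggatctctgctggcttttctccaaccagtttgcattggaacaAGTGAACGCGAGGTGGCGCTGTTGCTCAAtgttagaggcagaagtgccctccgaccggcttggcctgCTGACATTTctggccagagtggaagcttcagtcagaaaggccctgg
Hoxb, upstream of Hoxb8: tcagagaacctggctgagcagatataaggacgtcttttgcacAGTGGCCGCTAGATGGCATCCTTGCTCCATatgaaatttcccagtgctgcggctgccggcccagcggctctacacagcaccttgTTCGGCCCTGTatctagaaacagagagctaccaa

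Footprints of both replicates covered 85 of the 240 bases of the region between Hoxa9 and Hoxa7, 56 of 220 between Hoxa11 and Hoxa10, 51 of 180 in the Hoxd region, 41 of 160 upstream of Hoxb8 and 38 of 180 upstream of Hoxc8. The other regions named by the same rule, the 3 with the highest mean signal of each cluster outside 1 kb of the start sites used, had lower means than those named for the same cluster. They lay in Hoxa within the Hoxa10 gene (4.95 in replicate 1 and 3.80 in replicate 2), in Hoxb 4461 bp upstream of Hoxb6 (4.17 and 2.35) and at the long non-coding gene Gm53 (3.21 and 1.86), in Hoxc in introns of Hoxc6 and Hoxc5 (1.85 and 2.24), and in Hoxd 2742 bp upstream of Hoxd8 (3.67 and 2.59) and in an exon of Hoxd11 (2.61 and 1.61), replicate 1 before replicate 2 throughout. Hoxc had only 2 shared regions outside 1 kb of the start sites used, and the weaker of them lay within 1 kb of another start site of Hoxc6.

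Sequence matches to the 12-letter CTCF consensus were searched on both strands of the 101 regions with up to 1 mismatch. In 200 bp at the region centres, 10 of 101 regions (9.90%) held such a match, against 18.5% of all shared regions of the genome. Over the whole regions there were 12 matches in 12 regions, and 8 of the 12 touched a footprint of both replicates, where 10.5% of all 12-bp positions of these regions did. Of the 6 such matches inside the cluster bodies, 5 read in the direction of Hox transcription and the match between Hoxd13 and Hoxd12 read against it. This did not hold for body matches with 2 mismatches in a footprint of both replicates, of which more read against that direction than with it. The region with the match in the 5′ flank of Hoxa13 had 2.62 in replicate 1 and 1.37 in replicate 2. That in the 5′ flank of Hoxb13 had 3.27 and 2.29, and that between Hoxd13 and Hoxd12 had 1.84 and 1.83, in the same order. The 8 matches are shown on the strand of the match, 5′ to 3′ (mm10), with the consensus match in capitals, because they are the sequences that both libraries marked as protected.
Hoxa5 promoter, chr6:52204645-52204684, minus strand: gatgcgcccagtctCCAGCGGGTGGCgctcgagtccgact
Hoxa9 to Hoxa7, chr6:52221795-52221834, minus strand: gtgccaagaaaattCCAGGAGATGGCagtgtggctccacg
Hoxa11 to Hoxa10, chr6:52240527-52240566, minus strand: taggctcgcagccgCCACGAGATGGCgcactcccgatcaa
5′ flank of Hoxa13, chr6:52270688-52270727, plus strand: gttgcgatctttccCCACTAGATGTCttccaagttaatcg
Hoxb9 to Hoxb8, chr11:96278934-96278973, plus strand: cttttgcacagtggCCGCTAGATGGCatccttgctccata
5′ flank of Hoxb13, chr11:96145767-96145806, plus strand: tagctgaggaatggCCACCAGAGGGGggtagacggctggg
Hoxd13 to Hoxd12, chr2:74673164-74673203, minus strand: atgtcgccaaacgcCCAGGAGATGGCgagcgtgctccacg
Hoxd9 to Hoxd8, chr2:74702381-74702420, plus strand: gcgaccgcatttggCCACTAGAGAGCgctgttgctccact

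Among these 11 regions away from the start sites used, 4 held a match with up to 1 mismatch in a footprint of both replicates, and 8 did with up to 2 mismatches (72.7%), against 22.8% of all 101 regions. The Hoxd region between Hoxd8 and Hoxd4 was among those that needed 2 mismatches. The Hoxc region upstream of Hoxc8 had no such match in a footprint of both. The 101 regions include these 11, which were chosen for their strength, and many weaker regions held no footprint of both replicates. The shares are therefore not like for like, and the allowance of 2 mismatches was chosen after the data were seen. A match is a description of letters and not a measurement of CTCF binding.

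The other motifs were searched in the same 200 bp at the region centres and were in 0% to 25.7% of Hox regions. YY1 and both retinoic acid repeats were in 0 of 101, against 0.307% of all shared regions for YY1, 0.124% for the repeat spaced by 5 bases and 0.0710% for that spaced by 2. Outside the central 200 bp, the Hox regions held 1 match to the repeat spaced by 5. The paired site of HOX and TALE proteins (TGATNNAT, both strands) was in 5.94% of the 101 regions, against 4.46% of all shared regions. TALE proteins are the Pbx and Meis cofactors of Hox proteins. Over the whole regions this site had 11 matches, and 0 of them touched a footprint of both replicates. Of all 12-bp positions of these regions 10.5% did, and this site has 8 letters. With 11 matches, 0 is too near that share to be read as low. The AP-1 site (TGANTCA) was in 5.94% of Hox regions, against 11.5% of all, the SP and KLF site (GGGCGG) in 25.7%, against 25.1%, and the site of posterior HOX and CDX proteins (CAATAAA) in 1.98%, against 1.78%.

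Retinoic acid response elements, direct repeats bound by retinoic acid receptors, are known from mouse embryos to lie 3′ of Hoxb1, among other Hox genes, and to start Hox expression there. In the 4 windows 9 repeats spaced by 5 bases and 5 spaced by 2 bases were found. Of the 5, 1 touched a peak, 1117 bp downstream of the Hoxa10 TSS. It overlapped the edge of a replicate 2 peak in a shared region, and the nearest replicate 1 peak lay 116 bp away. Of the 9, only the repeat in the 3′ flank of Hoxc lay in a peak, a peak of both replicates at 1.36 in replicate 1 and 1.35 in replicate 2. The repeat 3′ of Hoxb1 lay 5816 bp from the nearest peak in replicate 1 and 5818 bp in replicate 2. Both are shown on their own strand with the repeats in capitals, since the element without a peak is as well matched as the one with a peak.
3′ of Hoxb1, chr11:96372776-96372792, plus strand: GGTTCAtagagAGTTCA
3′ flank of Hoxc, chr15:103061714-103061730, plus strand: GGTTCAccgagAGTTCA

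A promoter counted as open where overlapping peaks of both replicates touched the 1 kb on either side of the TSS nearest to the start codon. That site was used because long transcripts of several Hox genes start at the promoters of their neighbours. A peak of replicate 1 lay there for 28 of 39 Hox genes, against 62.1% of all genes, and a peak of replicate 2 for 23, against 58.1%. In all, 22 of 39 Hox promoters were open in both replicates, 6 had a peak in replicate 1 alone (against 4.66% of all genes), 1 in replicate 2 alone and 10 in neither (against 37.2% of all genes). In all 22 the strongest peaks of the 2 replicates overlapped. By cluster, 8 of 11 were open in Hoxa, 6 of 10 in Hoxb, 3 of 9 in Hoxc and 5 of 9 in Hoxd, against the background of 57.2%. By position, 8 of 12 posterior genes (groups 10 to 13), 9 of 15 middle genes (groups 5 to 9) and 5 of 12 anterior genes (groups 1 to 4) were open. All members of groups 5 and 10 were open and no member of groups 2, 3 and 12 was. With the stricter lists 15 of 39 were open, against 52.9% of all genes, and the Hoxb count was then 2 of 10.

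**Figure D3:**
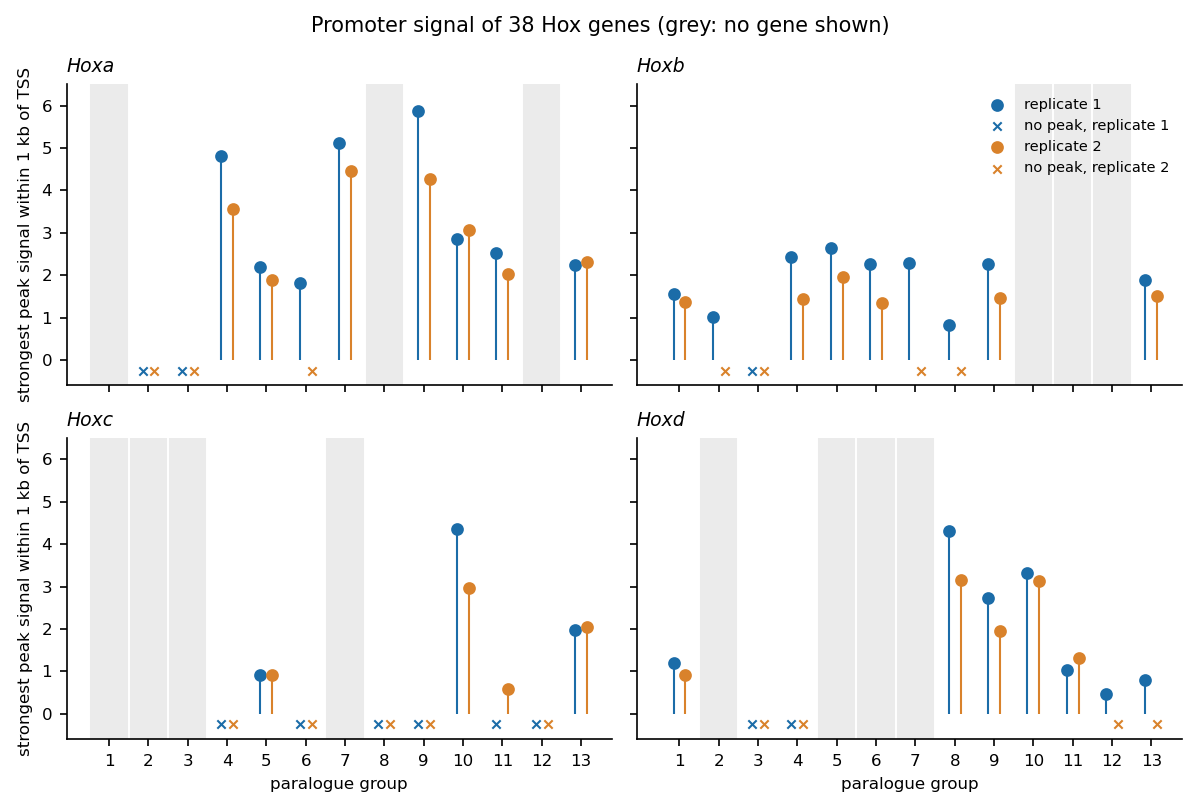
Strongest peak signal within 1 kb of the TSS (y axis) for the Hox genes by paralogue group (x axis), replicate 1 and replicate 2 as points and a cross where a replicate had no peak. Hoxa9 has the highest value of replicate 1 (5.87) and Hoxa7 that of replicate 2 (4.46), and most Hoxc genes have no peak.

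The posterior genes are those tied to the lower body. Hoxa13, known in mice for genital, urinary and digit development, had a promoter signal of 2.23 in replicate 1 and 2.31 in replicate 2. Hoxa11 and Hoxa10, known for the reproductive tract, had 2.53 and 2.86 in replicate 1 and 2.03 and 3.08 in replicate 2. Their promoter windows were almost wholly accessible. Of the bases of the Hoxa10 window 94.6% were at FDR 0.05 or lower in both replicates, and of those of the Hoxa11 window 89.4%.

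Hoxb13, known for the prostate, had 1.88 in replicate 1 and 1.52 in replicate 2. Hoxc13, a gene of hair and nails, had 1.98 in replicate 1 and 2.05 in replicate 2, from a peak 1017.5 bp (replicate 1) and 1007.5 bp (replicate 2) downstream of its start site. Hoxd13, known for digits and the urogenital tract, had 4 peaks in replicate 1, the strongest at 0.797, and none in replicate 2. Hoxa13, Hoxb13 and Hoxc13 were therefore open in both libraries and Hoxd13 in replicate 1 alone.

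Hoxc10 and Hoxd10, genes of the lumbar region, were the strongest posterior promoters at the TSS used. Hoxa10 was stronger than both at another annotated start site (7.17 in replicate 1 and 6.63 in replicate 2). Hoxc10 had 4.36 in replicate 1 and 2.97 in replicate 2 (3.67 ± 0.98, SD, n = 2) and Hoxd10 had 3.32 and 3.13 in the same order (3.22 ± 0.14). Hoxd11, which acts with Hoxa11 in kidney and forearm, had 1.04 in replicate 1 and 1.32 in replicate 2. Hoxd12 had a peak in replicate 1 alone, at 0.453, Hoxc11 in replicate 2 alone, at 0.592, and Hoxc12 had none.

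Among the middle genes Hoxa9, known for blood stem cells, had the strongest Hox promoter at the TSS used. Its signal was 5.87 in replicate 1 and 4.27 in replicate 2 (5.07 ± 1.1, SD, n = 2). Its neighbour Hoxa7, a gene of the thoracic region, had 5.12 and 4.46 in the same order (4.79 ± 0.46). Both exceeded the median of all open genes in each replicate, the only Hox promoters that did at the TSS used. Counting any annotated TSS, Hoxa7 had 6.97 in replicate 1 and 7.31 in replicate 2, above Hoxa9. Hoxa10 then exceeded these medians too, with 7.17 and 6.63 in the same order. Hoxa5, known for lung development, had 2.20 in replicate 1 and 1.89 in replicate 2, and Hoxa6 had 1.82 in replicate 1 and no peak in replicate 2.

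In Hoxd the middle genes were Hoxd8 with 4.31 in replicate 1 and 3.16 in replicate 2, and Hoxd9 with 2.74 and 1.94 in the same order. In Hoxb the open middle promoters were alike in size. Replicate 1 gave 2.64 for Hoxb5, 2.26 for Hoxb6 and 2.27 for Hoxb9, and replicate 2 gave 1.96, 1.34 and 1.47 for the same genes. Hoxb7 (2.29) and Hoxb8 (0.833) had a peak in replicate 1 alone. In Hoxc only Hoxc5 was open among the middle genes, at 0.901 in replicate 1 and 0.903 in replicate 2, the lowest mean of the 22, while Hoxc6, Hoxc8 and Hoxc9, genes of the thoracic region, had no peak.

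Of the anterior genes Hoxa4, a gene of the neck vertebrae, was the strongest, with 4.81 in replicate 1 and 3.57 in replicate 2. Hoxb4, known for blood stem cells, had 2.42 in replicate 1 and 1.43 in replicate 2. Hoxb1, a gene of the hindbrain, had 1.56 in replicate 1 and 1.38 in replicate 2, and Hoxd1 had 1.19 in replicate 1 and 0.911 in replicate 2. Hoxb2 had a peak in replicate 1 alone, at 1.00. Hoxa2, Hoxa3, Hoxb3, Hoxc4, Hoxd3 and Hoxd4 had no peak in either replicate. The promoters of Hoxb1 and Hoxd1 were thus open in both libraries, and those of their nearest Hox neighbours were not. The Hoxb1 call rested on a peak centred 1098.5 bp (replicate 1) and 1087.5 bp (replicate 2) downstream of its start site. Hoxb1 was not open with the stricter lists or with a promoter window of 500 bp on each side.

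Several start sites without a peak belong to genes with another, open one. Counting any annotated TSS, 25 of 39 genes were open, against 66.6% of all genes, and the 3 genes added were Hoxc6 (1.85 in replicate 1 and 2.24 in replicate 2), Hoxd3 and Hoxd4. Transcripts of both Hoxd3 and Hoxd4 start at a pair of neighbouring regions 3′ of Hoxd8, of which chr2:74711781-74712460 had 1.22 in replicate 1 and 1.51 in replicate 2 and chr2:74712461-74712640 had 1.53 in replicate 1 and 0.991 in replicate 2. The 10 genes without a peak had lower CpG content around the TSS (observed over expected 0.0880 to 0.891, median 0.503) than the 22 open genes (0.429 to 1.00, median 0.791), with wide overlap. Over all genes the medians were 0.195 for those not open and 0.716 for open ones.

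The 4 windows held 514 footprints in replicate 1 and 279 in replicate 2. Of these, 24.5% of replicate 1 and 48.4% of replicate 2 overlapped a footprint of the other library, against 35.9% of replicate 1 and 63.6% of replicate 2 over the genome. A shared footprint lay within 1 kb of the start site for 19 of 39 Hox genes, against 52.8% of all genes, and all 19 were open. The Hoxa body held 186 footprints in replicate 1 and 138 in replicate 2, against 20 and 13 in the Hoxc body.

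The 2 libraries differed over the Hox regions in a way that went with region width. With each replicate scaled to its median over all shared regions, the log2 ratio of replicate 1 over replicate 2 had a median of -0.29 over the 101 Hox regions (SD 0.39) and of -0.10 over all 73225 (SD 0.42). Of the 36 Hox regions up to 200 bp wide, 20 (55.6%) were higher in replicate 1, against 51.3% of all regions of that width. Of the 35 wider than 200 and up to 300 bp, 7 were, against 35.1% of all, and of the 30 wider than 300 bp 0 were, against 22.0% of all. The correlation of the ratio with log2 width was r = -0.54 (Spearman -0.57) over the 101 Hox regions and r = -0.19 (Spearman -0.21) over all shared regions, given as a description, since neighbouring regions share their library and their surroundings and the width is that of the peaks whose signals are compared. The unscaled signal pointed the other way, with a median of 0.10 over the Hox regions and 0.30 over all. The part of pooling, of the number of animals and of depth in this difference was not tested.

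**Figure D4:**
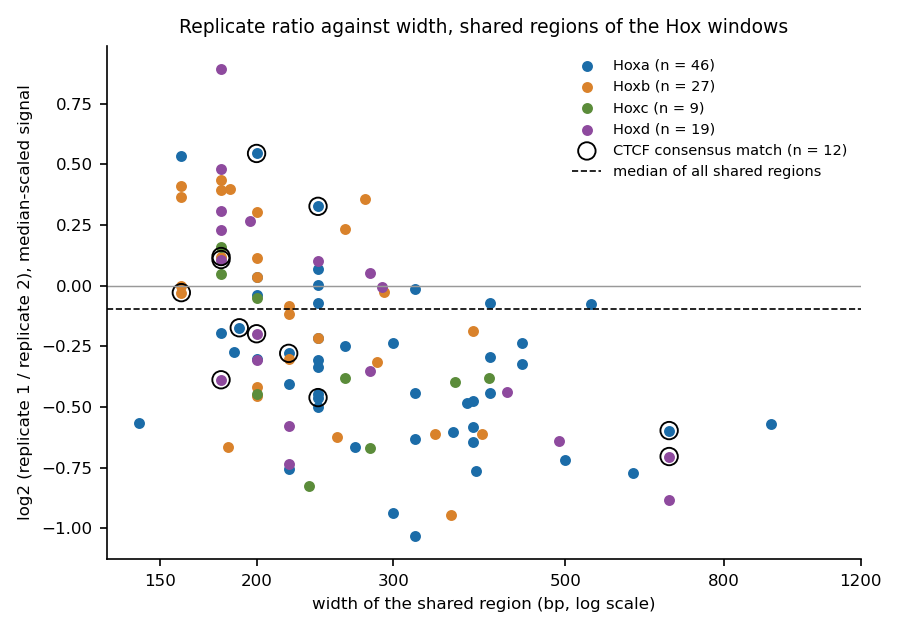
Log2 ratio of replicate 1 over replicate 2 (y axis, each scaled to its median over all shared regions) against region width in bp (x axis, log scale) for the 101 shared regions of the Hox windows, coloured by cluster, with circles around the 12 regions with a CTCF consensus match and a dashed line at the median of all shared regions (-0.10). The regions wider than 300 bp all lie below 0, and most of them are in Hoxa.

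Of the peaks of replicate 1 in the cluster bodies, 32 of 53 in Hoxb (60.4%), 18 of 37 in Hoxd (48.6%), 4 of 9 in Hoxc (44.4%) and 29 of 75 in Hoxa (38.7%) had no counterpart in replicate 2, against 46.0% of all peaks of replicate 1 in the genome. Of the peaks of replicate 2, 1 of 21 in Hoxb, 1 of 19 in Hoxd, 2 of 7 in Hoxc and 10 of 54 in Hoxa had none in replicate 1, against 9.05% over the genome. The strongest of them was a peak of replicate 1 in Hoxb at 2.39 (chr11:96320021-96320240), downstream of the Hoxb4 start site. In the 5′ flank of Hoxd replicate 1 had 11 peaks and replicate 2 had 1.

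Of the 56 non-coding genes that start in the 4 windows, 20 were open at any of their start sites, 9 of 11 with a start within 1 kb of a Hox TSS and 11 of 45 with none that near. These counts are given without the share over all non-coding genes of the genome, so they cannot be read as high or low. Haglr, which starts 84 bp from the Hoxd1 TSS, shares that promoter. Among the non-coding genes that start more than 1 kb from a Hox TSS, Hoxd3os1 had the strongest promoter (9.67 in replicate 1 and 5.28 in replicate 2), followed by 9530018H14Rik between Hoxa13 and Hoxa11 (5.52 and 2.90), Gm15050 between Hoxa3 and Hoxa2 (3.25 and 2.54), Gm53 upstream of Hoxb9 (3.21 and 1.86) and Mir196b (1.92 and 1.82), replicate 1 before replicate 2. Gm27861 and Gm27868, which share a peak in the Hoxa cluster (1.48 and 1.71), Hoxb3os (1.10 and 1.29), Gm27898 (1.41 and 0.807) and Mir615 (0.901 and 0.903) were weaker. At Gm27817 the strongest peak of replicate 1 (1.13) and that of replicate 2 (1.14) did not lie in the same region. Hottip, a long non-coding RNA known to act on the posterior Hoxa genes, had 2 peaks in replicate 1, the stronger at 0.864, and none in replicate 2. Hotair, in the Hoxc cluster and known for its ties to Polycomb, had none in either.

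The clusters also hold the microRNA families 10 and 196, which are known to target Hox transcripts. Mir196b, between Hoxa10 and Hoxa9, had 2 peaks of replicate 1 and 3 of replicate 2 within 1 kb. Mir196a-1, upstream of Hoxb9, had 1 peak in replicate 1 (0.875) and none in replicate 2, and Mir196a-2, in Hoxc, had none. Mir10a, in Hoxb, and Mir10b, in Hoxd, had none, while Mir615, inside Hoxc5, had 1 peak in each replicate. The mature sequences (RefSeq, GRCm38.p6) are shown with the seed, bases 2 to 8, in capitals, because the loci of the 196 family differ in their peaks but not in their seed.
mmu-miR-196b-5p (Mir196b, Hoxa): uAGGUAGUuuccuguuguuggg
mmu-miR-196a-5p (Mir196a-1, Hoxb, and Mir196a-2, Hoxc): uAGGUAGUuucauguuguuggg
mmu-miR-10a-5p (Mir10a, Hoxb): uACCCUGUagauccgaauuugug
mmu-miR-10b-5p (Mir10b, Hoxd): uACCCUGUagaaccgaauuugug
mmu-miR-615-3p (Mir615, Hoxc): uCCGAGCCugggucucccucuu

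Genes that act with or on Hox genes were open in larger shares than the Hox genes themselves, read against the same 57.2%. Of the TALE cofactors, which bind DNA together with Hox proteins, 7 of 9 were open, with Pbx3 at 7.30 ± 1.3, Pbx2 at 6.23 ± 2.3 and Meis1 at 6.05 ± 0.97 (mean signal ± SD, n = 2), and Pknox1 and Pknox2 had no peak at the TSS used. Of the Polycomb genes, which keep Hox genes silent, 14 of 17 were open. Cbx8 had 13.5 ± 1.3, Cbx6 had 8.58 ± 1.8, Suz12 had 7.73 ± 0.48 and Eed had 7.53 ± 0.64, and Ezh2, Pcgf2 and Phc1 had no peak at the TSS used. All 10 genes of the Trithorax group and related activators, which keep Hox genes active, were open, with Kmt2a at 12.3 ± 1.6, Dot1l at 10.8 ± 0.61, Kmt2b at 10.3 ± 1.3 and Wdr5 at 9.79 ± 0.46.

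Of CTCF and the cohesin genes, 9 of 10 were open, with Stag1 at 14.6 ± 0.68, Wapl at 9.50 ± 1.1 and Rad21 at 9.04 ± 0.84, and Pds5b had none at the TSS used. Counting any annotated TSS, all 9 TALE cofactors, all 17 Polycomb genes and all 10 of CTCF and cohesin were open, read against 66.6% of all genes. Smc3 had 13.8 in replicate 1 and 12.2 in replicate 2. The ParaHox genes and the homeobox genes linked to the clusters had weak promoters. Of these 13 genes, 7 were open, 3 had a peak in replicate 1 alone (Evx2, Pdx1 and Cdx4) and 3 had none (Cdx1, Cdx2 and Gsx2). The highest were Gsx1 at 1.71 ± 0.56, Gbx2 at 1.01 ± 0.33, Evx1 at 0.846 ± 0.077 and Gbx1 at 0.806 ± 0.16, and the median of the open ones was 0.806, against 2.28 for the open Hox genes and 4.48 for all open genes. With the stricter lists 3 of the 13 were open.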

How the data were processed

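DNase-seq of 2 urinary bladder libraries (1 group, replicate numbers from the labels) was used as deposited, mapped to mm10 per the labels. For the aligner and the peak caller, names and versions were not given in the sources used here. For each library the authors deposited 2 peak lists with a signal per peak, a footprint list, and a track of p-values adjusted to a false discovery rate along the genome, made per library without pooling. The looser peak list was the main list and the stricter list an alternative. From these, peaks of both replicates that overlapped by at least 1 bp were joined to shared regions with Python 3.11.15, pandas 2.3.3 and bedtools 2.31.1, and the sequence was read from GRCm38.p6 with pysam 0.24.0. TSSs came from GENCODE, over 21659 protein-coding genes with an annotated start codon. No pseudocount was needed, since signals were compared only where both replicates had a peak.

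Motifs were matched by consensus letters on both strands, the retinoic acid elements by the half-site repeat spaced by 5 or 2 bases. A replicate without a listed peak was given no value, since the lists hold only what passed the caller. The calls and the motif search were tested on simulated peaks and sequences and recovered what had been planted. All 39 members entered the counts, and the values of 1 Hox gene and of 1 other listed gene are not reported here. Values of both replicates were given for every other Hox gene with a promoter peak and for the 3 strongest shared regions of each cluster outside Hox promoters. They were also given for each region with a CTCF match of up to 1 mismatch inside a footprint of both replicates. The same holds for non-coding genes with an open promoter over 1 kb from every Hox TSS. Of each other list, up to 4 open genes were given with a mean signal or both values. Up to 4 peakless genes of each were named. Members, lists and rules were chosen with earlier results of these data known. The labels do not say whether the animals of the 2 libraries differ, so the spread between them may be technical.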

Additional observations from a re-analysis of the deposited data

How the results depend on the processing

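The 36 results were recomputed under 220 alternative values, of which 180 stayed within a set limit. The limit was 1.5 times the count given, 1 SD between the replicates, or the exact 95% binomial interval of a motif share. For the replicate ratio it was 1 SD over the Hox regions. Of the 39 genes, 15 were open under the call as reported and all 9 alternatives to it. With the stricter peak lists, open promoters numbered 2 in Hoxb, 3 in the anterior, 5 in the middle groups and 3 among the ParaHox and Hox-linked genes. Their median signal over open Hox genes was 2.97, the shared regions were 7 in Hoxb and 9 in Hoxd, and the body minus flank density per 100 kb was -1.98 in Hoxb, with the sign turned, and 9.29 in Hoxd. With the stronger 50% of peaks that difference was 23.6 in Hoxa. In Hoxc it was 0.320 as reported, -1.68 with 25 kb flanks and -0.680 with 100 kb flanks. The share of bases was, at FDR 0.01 and then at 0.001, 14.4% and 12.2% in Hoxa, 1.19% and 0.560% in Hoxb, 0.971% and 0.840% in Hoxc, and 3.10% and 1.97% in Hoxd. CTCF matches were in 0% of Hox regions with no mismatch and in 33.7% with up to 2 (both allowances chosen after seeing the data), and HOX and TALE matches in 1.98% of 100 bp windows. Without scaling, the median log2 replicate ratio over Hox regions was 0.10. It was 0.20 below that of all shared regions under each scaling (-0.20). This difference could not change, because a scaling shifts every log2 ratio by the same amount. Apart from the alternatives' own construction, the causes were not tested.

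With 1 replicate left out, the peaks of the other alone were counted. Regions per body then ran from 54 to 75 in Hoxa, 21 to 53 in Hoxb, 7 to 9 in Hoxc and 19 to 37 in Hoxd. Body minus flank density ran from 47.3 to 61.2 in Hoxa, 5.07 to 19.5 in Hoxb, -2.22 to 1.05 in Hoxc and 18.6 to 27.2 in Hoxd. The FDR share ran from 22.8% to 26.3% in Hoxa, 2.57% to 7.16% in Hoxb, 1.44% to 1.94% in Hoxc and 4.95% to 11.5% in Hoxd, and footprints from 138 to 186, 46 to 128, 13 to 20 and 42 to 90 in the same order of clusters. No paired analysis was possible because the series has 1 group. The lists hold only what passed the peak caller, so a peak in replicate 1 alone does not show that the site was closed in replicate 2. Read depth was not used here, and its part in unshared peaks was not tested.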
